A study of Homo sapiens with 30 samples.

Results

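Imprinted genes are transcribed mainly or only from 1 parental copy. They were examined here by total RNA-seq in H9 cells, an established line of human embryonic stem cells. The 45 genes were taken by symbol from a list of imprinted loci, and each had a row among the 28307 genes of every count table. By the allele that is usually active, 14 were classed as maternally expressed and 26 as paternally expressed. The other 5 (COPG2, GRB10, BLCAP, GNAS and ZNF331) were set apart, since their parent of origin depends on isoform or tissue or is disputed. UBE3A, IGF2R and INPP5F were kept in a class although their imprinting is limited too, as given for each below. Reads were counted per gene and not per allele, so each level sums both parental copies, and the files used here do not show from which copy a transcript came.

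The study asked how XIST, the noncoding RNA that coats the X chromosome, acts in naive cells before X inactivation. The 30 libraries form 10 groups of 3. Primed WT cells, which resemble the epiblast after implantation, grew on Matrigel in mTeSR1 medium. They were reset chemically to the naive, preimplantation-like state in NaiveCult medium (NaiveCult WT) or in PXGL medium (PXGL WT), both on mouse embryonic fibroblasts. XACT KO cells are NaiveCult cells from 3 clones with a deletion over the start sites of the noncoding RNA XACT. XIST KO cells are PXGL cells of 1 clone lacking the XIST promoter and first exon, and its 3 libraries are technical replicates per the study's methods. CRISPRi UT and CRISPRi Dox are PXGL clones that carry a doxycycline-inducible dCas9-KRAB repressor, inserted at random by piggyBac and aimed at the XIST promoter, without and with doxycycline. In the last 3 groups PXGL cells received siRNA: a scrambled control in siScr, and in siSPEN1 and siSPEN2 separate mixes against SPEN, a repressor that binds XIST. In the CRISPRi groups doxycycline and the loss of XIST cannot be told apart. The library names carry 3 run codes, and PXGL WT has another code than Primed WT and NaiveCult WT, so between these groups the run and the culture state cannot be told apart. The methods give biological replicates for the other groups, but for XIST KO the p-values measure technical spread of 1 clone on that side.

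Imprinted genes lie mostly in clusters, in which a differentially methylated control region inherited from the egg or the sperm sets the active copy of several genes at once. Many act on growth, the placenta, metabolism or the brain, often with growth-promoting genes active on the paternal copy and growth-restraining ones on the maternal copy. Resetting of human cells to the naive state is known to be accompanied by loss of methylation across the genome, imprinted control regions included. The protein ZFP57, with its cofactor TRIM28, binds the methylated form of the hexamer TGCCGC in control regions and keeps them methylated when the rest of the genome is demethylated.

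Library totals ran from 31.2 to 65.6 M counts (M is 1000000). Levels are given as counts per M counts of the library total (CPM), for replicates 1, 2 and 3 in that order. Labels held at the targeted genes. XIST was at 898 to 901 CPM in PXGL WT against 0.177 to 0.448 in XIST KO, and at 642 to 698 CPM in CRISPRi UT against 6.52 to 170 in CRISPRi Dox. SPEN was at 283.9 to 376 CPM in siScr and at 152 to 177 in both knockdowns, and XACT at 1.14 to 2.17 CPM in NaiveCult WT and at 0 to 0.124 in XACT KO. The summed level of 10 naive markers was 30.01 to 34.7 CPM in primed and 2716 to 4031 CPM in the 27 naive libraries, and that of 9 primed markers 5666 to 5778 and 184 to 282.3 CPM. Markers of other cells moved with the groups too. The summed level of 9 trophoblast markers was 10.3 to 10.9 CPM in Primed WT, 374 to 590 CPM in the 6 NaiveCult libraries and 19.7 to 48.5 CPM in the 21 PXGL libraries. That of 10 fibroblast markers was 128 to 135, 7.55 to 36.3 and 4.23 to 17.6 CPM, and that of 6 mesendoderm markers 0.411 to 0.529, 37.6 to 45.7 and 22.3 to 50.7 CPM. Their part in the results below was not tested.

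The 45 genes held 0.215% to 0.295% of the counts of a library. A mean of at least 1 CPM was reached by 29 of them in Primed WT, 31 in NaiveCult WT and 34 in PXGL WT. PHLDA2, which restrains placental growth, had 0 counts in all 30 libraries, and whether this comes from the annotation used for counting or from expression could not be told. AIRN, the antisense RNA at IGF2R, stayed at or below 0.0339 CPM, HYMAI at or below 0.471 CPM and RTL1, a retrotransposon-derived gene of the placenta, at or below 0.279 CPM. In bulk RNA a lower level can come from fewer cells that express a gene or from less RNA per cell, which cannot be told apart. Summed over the 14 maternally expressed genes the level was 485 to 539 CPM in Primed WT, 830.5 to 915 CPM in NaiveCult cells and 833 to 1120.0 CPM in PXGL cells, so every naive library was above every primed one. For the 26 paternally expressed genes the order on library totals was the reverse, with 1531 to 1789 CPM in Primed WT, 1069 to 1236 in NaiveCult cells and 871 to 1253 in PXGL cells. With TMM factors in place of library totals the maternal sums stayed apart, at 420.2 to 458 in Primed WT and at least 824 in naive cells, but the paternal sums of Primed WT (1326 to 1517) and PXGL cells (871 to 1346) overlapped. MEG3 and MEG8 together made up most of the maternal sum in naive cells, as their values below show. Without them the sums on library totals were lower in every naive library than in any primed one. With TMM factors this separation was not complete. Those factors were 0.936 for siScr replicate 3 and 1.15 for Primed WT replicate 1, and with them siScr replicate 3 lay above Primed WT replicate 1. UBE3A was at 272 to 277 CPM in Primed WT and 175 to 224 CPM in naive libraries, and IGF2R at 141 to 182 and 46.2 to 106 CPM.

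The promoters of 4 genes whose levels separated the states are printed first, with the hexamer TGCCGC, or GCGGCA where it lies on the other strand, in capitals. Each is the 250 bases before the start of transcription in the RefSeq table of build GRCh38.p14, read 5′ to 3′ in the direction of the gene. MEG3 and MKRN3 were at or near 0 in Primed WT and on in naive cells, NDN was lower in naive cells, and SNURF was lower still. The windows are chr14:100825858-100826107 on the plus strand for MEG3, chr15:23565424-23565673 on the plus strand for MKRN3, chr15:23687306-23687555 on the minus strand for NDN and chr15:24954737-24954986 on the plus strand for SNURF, which shares its window with 1 start of SNRPN.
MEG3: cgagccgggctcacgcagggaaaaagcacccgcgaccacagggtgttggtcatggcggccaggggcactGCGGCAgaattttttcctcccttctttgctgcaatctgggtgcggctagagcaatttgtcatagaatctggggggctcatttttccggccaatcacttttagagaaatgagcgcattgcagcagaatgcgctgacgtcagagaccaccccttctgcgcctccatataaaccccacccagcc
MKRN3: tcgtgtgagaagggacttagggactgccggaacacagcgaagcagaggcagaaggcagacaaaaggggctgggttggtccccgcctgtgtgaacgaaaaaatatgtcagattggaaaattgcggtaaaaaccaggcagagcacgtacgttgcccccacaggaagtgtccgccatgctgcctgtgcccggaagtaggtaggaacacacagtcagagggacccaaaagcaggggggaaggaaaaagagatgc
NDN: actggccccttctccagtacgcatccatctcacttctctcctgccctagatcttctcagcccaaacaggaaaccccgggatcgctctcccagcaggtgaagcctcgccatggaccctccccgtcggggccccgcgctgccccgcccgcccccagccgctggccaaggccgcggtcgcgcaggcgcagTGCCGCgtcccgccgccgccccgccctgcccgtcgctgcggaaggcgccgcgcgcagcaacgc
SNURF: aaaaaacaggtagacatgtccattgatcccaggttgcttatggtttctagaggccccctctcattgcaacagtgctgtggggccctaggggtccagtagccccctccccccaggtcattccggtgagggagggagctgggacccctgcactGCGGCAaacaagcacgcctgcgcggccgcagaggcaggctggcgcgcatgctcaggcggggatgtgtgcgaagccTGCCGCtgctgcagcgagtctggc
The hexamer was found once upstream of MEG3 and of NDN, 2 times upstream of SNURF and not upstream of MKRN3, while 12.75% of all 35116 upstream windows in the table hold it. The 4 windows hold 13, 10, 30 and 12 CG dinucleotides, against a median of 11 over all windows. Over whole 300-base windows, with 50 bases after the start added, the table covered 29 of the 45 genes with 64 starts. The hexamer stood in 23 of these 64 windows (35.94%) and in 16.74% of all 35116, and the members' windows also held more CG dinucleotides, with a median of 18 against 14. Counted by gene, 15 of 29 (51.72%) had it at some start, against 19.48% of 27305 genes. A gene with more starts has more windows to match, and the members had more starts per gene (64 over 29 genes) than all genes (35116 over 27305). PLAGL1 shares a window with HYMAI, and SNRPN with SNURF. Both shared windows hold the hexamer and were counted 2 times. Windows of nearby starts of 1 gene also overlap. The same hexamer of MEG3 was counted in all 3 of its windows, and sites of BLCAP and MEST in more than 1 window. The 23 windows are therefore not 23 separate sites. These are matches of letters in a window, and methylation was not analysed here.

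Naive cells were compared with primed cells with edgeR's quasi-likelihood test over all genes, and a gene was called at an adjusted p under 0.05 with a log2 fold change beyond 1 in either direction. In NaiveCult WT 24 of the 41 members tested were called, 11 higher and 13 lower than in Primed WT, at a background of 49.6% of all 18663 genes. PXGL WT had 27 called, 15 higher and 12 lower, against 54.8%. By direction, the background was 21.1% higher and 28.4% lower in NaiveCult WT and 25.8% and 29.1% in PXGL WT, so the members' counts lay near it or a few genes above it. The median absolute log2 fold change was 1.39 for the members and 1.00 for all genes in NaiveCult WT, and 1.30 and 1.18 in PXGL WT, and both members' medians stayed the same with the 2 genes at 0 counts in Primed WT placed at their lower bounds. Maternally expressed genes split into 5 higher and 4 lower of 13 tested in NaiveCult WT and 7 higher and 3 lower in PXGL WT. Paternally expressed genes split into 6 higher and 8 lower of 23 in NaiveCult WT and 8 and 8 in PXGL WT, so no direction was shared by a class.

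By pattern, 11 of the 41 members tested were called higher in both naive groups (26.8%, against 16.8% of all genes) and 9 lower in both (22%, against 23%). A further 3 (ZNF597, PEG10 and PLAGL1) were called lower in NaiveCult WT alone, 3 (CDKN1C, NAA60 and IGF2) higher in PXGL WT alone and 3 (KCNQ1OT1, ZDBF2 and FAM50B) lower in PXGL WT alone, 7.32% of the members each against 4.99%, 8.51% and 5.71% of all genes. MAGEL2 was called in opposite directions, as were 0.847% of all genes, and 11 members were called in neither (26.8%, against 36.2%). The other 4 (PHLDA2, RTL1, HYMAI and AIRN) were not tested for low counts. Of these, RTL1 and HYMAI were called higher in PXGL WT than in Primed WT with no filter on low counts (log2 fold changes of 3.63 and 2.09, edgeR adjusted p = 0.003 and 0.013) and with all 30 libraries in 1 fit (3.56 and 2.04, edgeR adjusted p = 0.00057 and 0.0046). The NaiveCult and PXGL comparisons share the Primed WT libraries. Scaling by library totals in place of TMM factors moved the median of all genes from -0.01 to -0.17 in NaiveCult WT and from -0.03 to -0.24 in PXGL WT, and the members' split then read 10 higher and 15 lower in NaiveCult WT and 13 and 14 in PXGL WT.

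**Figure D1:**
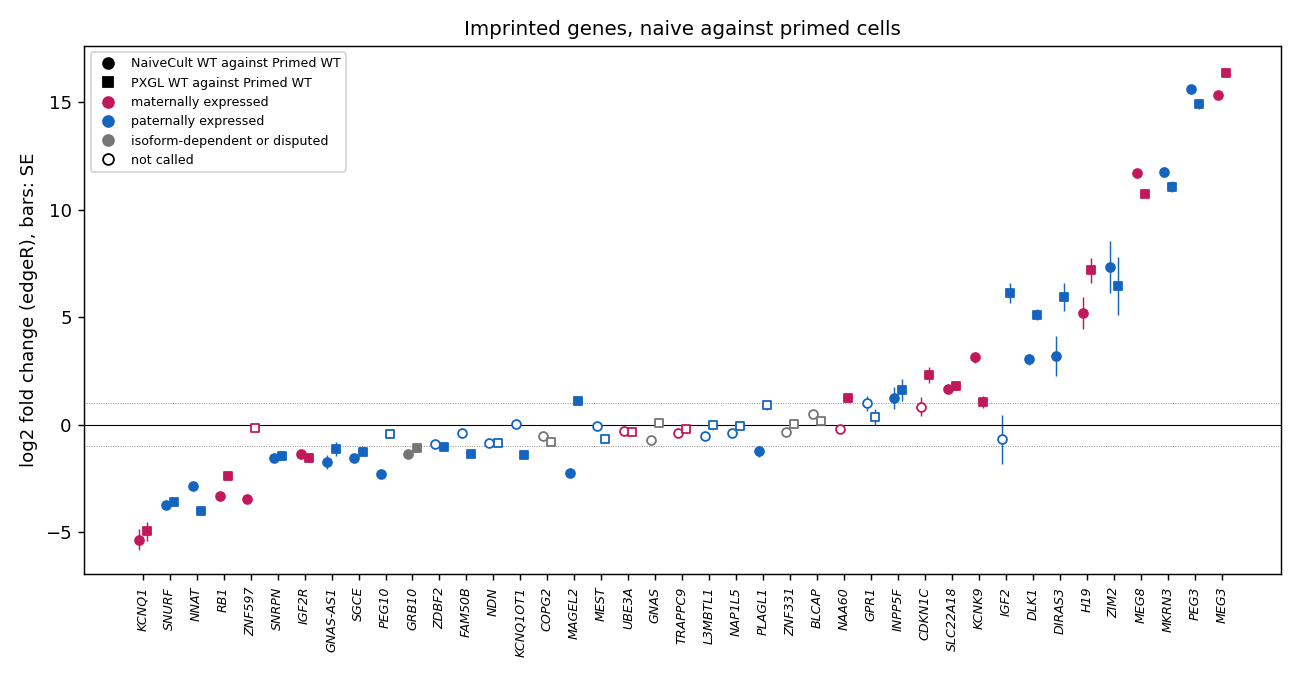
Log2 fold change (edgeR) of each tested imprinted gene in NaiveCult WT (circles) and PXGL WT (squares) against Primed WT, with the standard error as bars, coloured by parental class, open symbols not called and dotted lines at a log2 fold change of 1 and -1. MEG3, PEG3, MKRN3 and MEG8 stand apart at the right with log2 fold changes above 10 in both naive groups, KCNQ1 is lowest at the left, and both classes hold genes on either side of 0.

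The DLK1–MEG3 cluster on chromosome 14 was nearly silent in primed cells at its maternally expressed genes. Its maternal copy makes long noncoding RNAs and its paternal copy DLK1 and RTL1. MEG3 (GENCODE 44 on hg38, chr14:100779410-100861031, plus strand), a long noncoding RNA, was at 0, 0 and 0.0152 CPM in Primed WT, 332, 312 and 332 in NaiveCult WT and 636, 648 and 636 in PXGL WT. All primed libraries together held 1 read of MEG3 in exons, against 41812 in NaiveCult WT and 106502 in PXGL WT. As a ratio of CPM this is 54457-fold (95% counting interval 9773 to 2.15e+06) in NaiveCult WT and 1.07e+05-fold (95% counting interval 19194 to 4.22e+06) in PXGL WT, with edgeR adjusted p = 1.7e-17 and 1.4e-17. That read was in Primed WT replicate 3, and the fitted log2 fold changes of 15.36 and 16.39, which with so few reads depend on the prior count, were 17.00 and 18.03 without this library. MEG3 was thus near 0 in primed cells and in naive cells among the highest of the 45 genes per kilobase of exon, at 14.0 CPM per kilobase in NaiveCult WT and 27.6 in PXGL WT.

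MEG8 (chr14:100894770-101038859, plus strand) lies further along the same strand and hosts small nucleolar RNAs. MEG8 was at 0.0196, 0.158 and 0.0914 CPM in Primed WT, 277, 273 and 281.7 in NaiveCult WT and 141, 133 and 140.4 in PXGL WT. It was 3094-fold (95% counting interval 1876 to 5529) higher in NaiveCult WT and 1546-fold (95% counting interval 937 to 2764) higher in PXGL WT (edgeR adjusted p = 6.3e-17 and 1.1e-16). The order of the naive groups was therefore the reverse of that of MEG3, with no overlap in either gene. DLK1 (chr14:100725705-100738224, plus strand) is the paternally expressed gene of the cluster and a membrane protein related to Notch ligands. DLK1 was at 0.431, 0.375 and 0.274 CPM in Primed WT, 2.17, 3.67 and 2.003 in NaiveCult WT and 11.1, 10.3 and 10.8 in PXGL WT. For DLK1 the log2 fold change was 3.03 (SE 0.27, edgeR adjusted p = 9.9e-08) in NaiveCult WT and 5.11 (SE 0.25, adjusted p = 1.2e-10) in PXGL WT. Genes of both parental classes in this cluster were thus higher in naive cells, and MEG3 reads outnumbered those of DLK1 by 85.0 to 166 times in the NaiveCult WT libraries and 57.5 to 62.7 times in PXGL WT. MEG8 shares exon sequence on its strand with small nucleolar RNAs, and MEG3 with MIR770, so that reads there could be lost in counting.

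A second locus, PEG3 and ZIM2 on chromosome 19, was silent in primed cells. PEG3 (chr19:56810077-56840728, minus strand), which encodes a zinc finger protein and is paternally expressed, had 0 counts in each of the 3 primed libraries and was at 119, 104 and 131 CPM in NaiveCult WT and 72.2, 68.5 and 71.1 CPM in PXGL WT. Against the floor of 3 counts over the primed group PEG3 was at least 6598-fold higher in NaiveCult WT and 3953-fold in PXGL WT (edgeR adjusted p = 1.4e-14 and 2.5e-14). ZIM2 (chr19:56774547-56840731, minus strand), a zinc finger gene with exons in common with PEG3, was at 0 in the primed libraries as well, and at 0.268, 0.186 and 0.675 CPM in NaiveCult WT and 0.302, 0.190 and 0.0975 CPM in PXGL WT. Its lower bounds were 21.3 and 11.05 (edgeR adjusted p = 1.2e-04 and 7.4e-04), and without NaiveCult WT replicate 3 the fitted log2 fold change of 7.33 was 6.63. Reads in exons that PEG3 and ZIM2 share belong to neither by the counting rule, so their levels are uncertain.

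The cluster on chromosome 15 holds the genes of the Prader-Willi and Angelman syndromes, and its members differed in direction. From the MKRN3 end, MKRN3, MAGEL2 and NDN lie within the span from 23565674 to 23687305, SNRPN and SNURF start at 24823637 and 24954987, and UBE3A lies beyond them on the other strand. MKRN3 (chr15:23565674-23630075, plus strand) is a ubiquitin ligase linked to the timing of puberty. MKRN3 was at 0, 0.0197 and 0 CPM in Primed WT, 25.02, 29.2 and 26.7 in NaiveCult WT and 15.8, 15.5 and 17.1 in PXGL WT. Its 1 primed read was in replicate 2, and the ratio was 4519-fold (95% counting interval 811 to 1.79e+05) in NaiveCult WT and 2710.2-fold (95% counting interval 486 to 1.07e+05) in PXGL WT (edgeR adjusted p = 1.5e-14 and 3.5e-14). Without that library the fitted log2 fold changes of 11.77 and 11.08 were 13.46 and 12.78. MKRN3 was therefore near 0 in primed and on in naive cells. Of its paternally expressed neighbours, MAGEL2, NDN and SNRPN were above 1 CPM in every library of these groups, and SNURF was below 1 CPM in naive cells.

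MAGEL2 (chr15:23643549-23647867, minus strand) is a MAGE family protein that helps recycle membrane proteins. MAGEL2 was at 6.46, 8.61 and 8.20 CPM in Primed WT, 1.71, 1.21 and 1.44 in NaiveCult WT and 15.2, 14.9 and 13.4 in PXGL WT. Its log2 fold change against Primed WT was -2.27 (SE 0.15, edgeR adjusted p = 5.1e-09) in NaiveCult WT and 1.11 (SE 0.13, adjusted p = 1.4e-06) in PXGL WT, and between the naive groups it was 3.38 (SE 0.15, edgeR adjusted p = 2.2e-10). With library totals the PXGL WT value was 0.90 and no longer called. The groups did not overlap, so MAGEL2 was lowest in NaiveCult WT and highest in PXGL WT. NDN (chr15:23685400-23687305, minus strand) is a growth suppressor of the same family. NDN was at 88.3, 89.8 and 72.5 CPM in Primed WT, 42.6, 35.3 and 44.7 in NaiveCult WT and 40.7, 37.8 and 40.7 in PXGL WT. For NDN the log2 fold change was -0.88 (SE 0.088, edgeR adjusted p = 4.1e-07) and -0.86 (SE 0.088, adjusted p = 4.1e-07), which passed the adjusted p but not the fold, and it passed both with library totals (-1.03 and -1.07).

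SNURF starts at the control region of this cluster, as do some transcripts of SNRPN, whose annotated gene start lies further upstream. SNURF and SNRPN share a transcript and exons, so the counts of each are uncertain. SNURF (chr15:24954987-24977850, plus strand) encodes a small nuclear protein and was at 10.6, 10.5 and 9.77 CPM in Primed WT, 0.683, 0.581 and 0.810 in NaiveCult WT and 0.794, 0.593 and 0.764 in PXGL WT. The log2 fold change of SNURF was -3.74 (SE 0.17, edgeR adjusted p = 5.1e-11) in NaiveCult WT and -3.62 (SE 0.16, adjusted p = 4.0e-11) in PXGL WT. SNRPN (chr15:24823637-24978723, plus strand) encodes a splicing protein used in brain and heart. SNRPN was at 27.1, 28.4 and 29.4 CPM in Primed WT, 8.63, 7.62 and 9.45 in NaiveCult WT and 9.01, 8.91 and 8.60 in PXGL WT, with -1.57 (SE 0.086, edgeR adjusted p = 5.1e-10) and -1.47 (SE 0.085, adjusted p = 7.5e-10) on the log2 scale. Every naive library was below every primed one in both genes, and the naive groups overlapped. UBE3A (chr15:25333728-25439051, minus strand) is the ubiquitin ligase lost in Angelman syndrome and imprinted in neurons. UBE3A was at 276, 277 and 272 CPM in Primed WT, 198, 195 and 207 in NaiveCult WT and 183, 181 and 190.5 in PXGL WT, and its log2 fold changes of -0.30 (SE 0.039, edgeR adjusted p = 5.5e-06) and -0.36 (SE 0.039, adjusted p = 7.6e-07) stayed below the fold threshold. The ratio of SNRPN to UBE3A counts was 0.0983 to 0.108 in Primed WT and 0.0390 to 0.0493 in both naive WT groups.

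**Figure D2:**
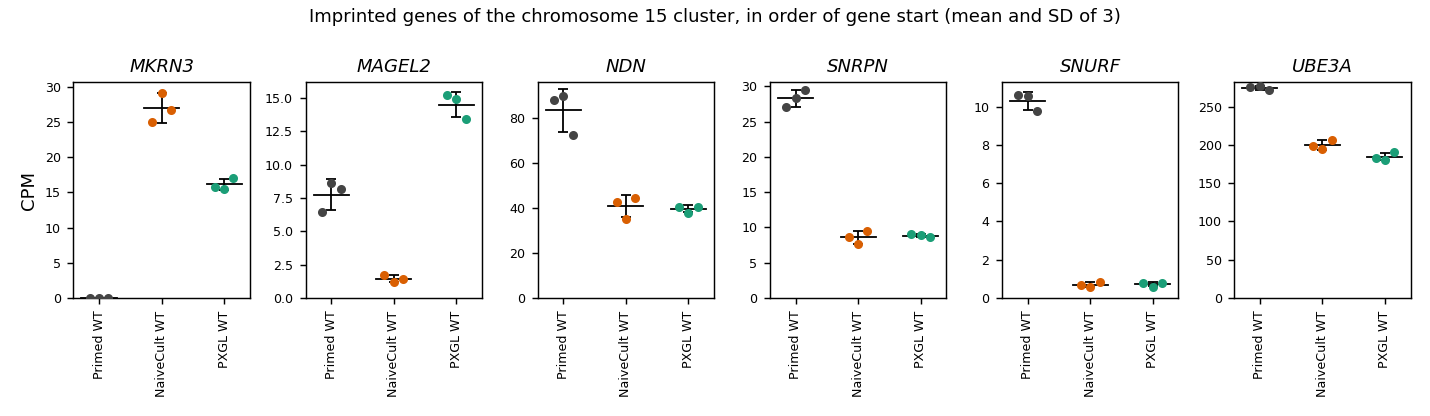
CPM of 6 genes of the chromosome 15 cluster, in order of gene start, in the 3 libraries of Primed WT, NaiveCult WT and PXGL WT, with the mean and SD as lines and each y axis on its own linear scale from 0. MKRN3 is at or near 0 in primed cells and above 15 CPM in naive cells, SNRPN and SNURF run the other way, and MAGEL2 is below primed in NaiveCult WT and above it in PXGL WT.

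On chromosome 11, H19 and IGF2 form one imprinted domain and the genes around KCNQ1 another. H19 (chr11:1995166-2004552, minus strand) is a maternally expressed noncoding RNA. H19 was at 0, 0.0197 and 0 CPM in Primed WT, 0.220, 0.256 and 0.360 in NaiveCult WT and 1.27, 1.14 and 0.845 in PXGL WT. Its single primed read was in replicate 2, the ratio was 46.9-fold (95% counting interval 7.90 to 1903) in NaiveCult WT and 181-fold (95% counting interval 32.0 to 7178) in PXGL WT (edgeR adjusted p = 1.5e-05 and 3.2e-08), and without this library the fitted log2 fold changes of 5.18 and 7.18 were 6.88 and 8.88. IGF2 (chr11:2129112-2158391, minus strand) is the fetal growth factor of the paternal copy. IGF2 was at 0, 0.0197 and 0.0609 CPM in Primed WT, 0.0244, 0.0232 and 0 in NaiveCult WT and 2.399, 1.59 and 1.79 in PXGL WT. It was 65.9-fold (95% counting interval 27.9 to 204) higher in PXGL WT (edgeR adjusted p = 2.0e-08), with a fitted log2 fold change of 6.11 that was 7.47 without Primed WT replicate 3. NaiveCult WT held 2 reads of IGF2 in all, and its difference from Primed WT, with 5 reads, was not detectable at this depth (edgeR adjusted p = 0.58). H19 was thus raised in both naive groups and IGF2 in PXGL WT, all at levels of a few CPM or less. IGF2 shares exons with the readthrough gene INS-IGF2 and H19 with MIR675, so some reads may be lost.

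KCNQ1 (chr11:2444654-2849105, plus strand), a voltage-gated potassium channel, went the other way, at 1.96, 2.59 and 2.21 CPM in Primed WT, 0.122, 0.0232 and 0 in NaiveCult WT and 0.0794, 0.0237 and 0.0650 in PXGL WT. It was 48.1-fold (95% counting interval 21.9 to 132) lower in NaiveCult WT and 37.4-fold (95% counting interval 20.1 to 78.7) lower in PXGL WT (edgeR adjusted p = 1.3e-07 and 9.4e-08). The NaiveCult WT value rested on 6 reads, and its fitted log2 fold change of -5.36 was -7.20 without NaiveCult WT replicate 1 and -4.76 without replicate 3. KCNQ1OT1 (chr11:2597308-2700003, minus strand) is the paternal antisense RNA that runs through KCNQ1 and silences genes of the domain on its own copy. KCNQ1OT1 was at 283.2, 351 and 376 CPM in Primed WT, 283.4, 317 and 308 in NaiveCult WT and 111, 104 and 111 in PXGL WT. Its log2 fold change was 0.00 (SE 0.08, edgeR adjusted p = 0.99) in NaiveCult WT and -1.43 (SE 0.082, adjusted p = 7.1e-10) in PXGL WT. KCNQ1 and its antisense RNA therefore did not move together, since KCNQ1 was nearly absent in both naive groups and KCNQ1OT1 was lower in PXGL WT alone.

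CDKN1C (chr11:2883213-2885775, minus strand) is an inhibitor of cyclin-dependent kinases that restrains growth. CDKN1C was at 0.137, 0.237 and 0.244 CPM in Primed WT, 0.463, 0.325 and 0.225 in NaiveCult WT and 0.683, 0.687 and 1.32 in PXGL WT. The log2 fold change of CDKN1C was 0.84 (SE 0.44, edgeR adjusted p = 0.093) in NaiveCult WT and 2.31 (SE 0.38, adjusted p = 6.1e-05) in PXGL WT. SLC22A18 (chr11:2899721-2925246, plus strand) is a membrane transporter next to it. SLC22A18 was at 1.31, 1.12 and 1.51 CPM in Primed WT, 4.10, 3.83 and 3.26 in NaiveCult WT and 3.80, 4.41 and 3.79 in PXGL WT, with log2 fold changes of 1.65 (SE 0.17, edgeR adjusted p = 6.8e-07) and 1.80 (SE 0.17, adjusted p = 2.1e-07). These maternally expressed genes of the KCNQ1 domain were higher than in primed cells, apart from CDKN1C in NaiveCult WT, which was not called, while KCNQ1 was lower.

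On chromosome 7, PEG10 and SGCE are paternally expressed from a common control region and point away from each other. PEG10 (chr7:94656325-94669695, plus strand) is a retrotransposon-derived protein needed in the placenta. PEG10 was at 392, 394 and 405 CPM in Primed WT, 65.5, 71.1 and 77.5 in NaiveCult WT and 257, 253 and 249 in PXGL WT. In NaiveCult WT its log2 fold change was -2.32 (SE 0.055, edgeR adjusted p = 6.9e-14), and in PXGL WT it was -0.44 (SE 0.052, adjusted p = 1.9e-06), short of the fold threshold. SGCE (chr7:94524204-94656572, minus strand) is the sarcoglycan mutated in myoclonus dystonia. SGCE was at 14.2, 13.5 and 13.0 CPM in Primed WT, 4.61, 3.53 and 4.46 in NaiveCult WT and 4.46, 4.79 and 5.07 in PXGL WT, with -1.54 (SE 0.12, edgeR adjusted p = 2.4e-08) and -1.30 (SE 0.12, adjusted p = 1.0e-07). Both genes were below primed in every naive library of these groups, and PEG10 was lower in NaiveCult WT than in PXGL WT, by 1.88 (SE 0.054, edgeR adjusted p = 4.7e-12) on the log2 scale for PXGL WT against NaiveCult WT, while SGCE was at 0.24 (SE 0.12, adjusted p = 0.098). GRB10 (chr7:50590063-50793462, minus strand) is an adaptor that dampens insulin signalling. GRB10 was at 134, 159 and 149 CPM in Primed WT, 51.9, 50.6 and 50.4 in NaiveCult WT and 60.7, 59.5 and 61.4 in PXGL WT, with log2 fold changes of -1.38 (SE 0.057, edgeR adjusted p = 2.2e-11) and -1.08 (SE 0.056, adjusted p = 2.2e-10). MEST, a paternally expressed gene with a hydrolase fold, was the highest of the 45 per kilobase of exon in primed cells (61.2 CPM per kilobase) and in NaiveCult WT (52.4), and was not called in either comparison, nor was its neighbour COPG2, a coat protein of transport vesicles, which passed the fold in PXGL WT only with library totals (-1.01).

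NNAT (chr20:37521206-37523690, plus strand) is a small membrane protein of the endoplasmic reticulum that lies inside BLCAP on chromosome 20. NNAT was at 72.6, 67.8 and 72.2 CPM in Primed WT, 7.90, 9.99 and 8.69 in NaiveCult WT and 4.16, 3.22 and 3.84 in PXGL WT. The log2 fold change of NNAT was -2.85 (SE 0.095, edgeR adjusted p = 2.3e-12) in NaiveCult WT, -4.03 (SE 0.1, adjusted p = 1.1e-13) in PXGL WT and -1.18 (SE 0.11, edgeR adjusted p = 2.3e-07) between them, with no overlap of the groups. BLCAP, its host gene on the opposite strand, was at 77.1 to 85.8 CPM in primed and 71.4 to 114 CPM in all naive libraries and was not called, at 0.51 and 0.17 on the log2 scale. NNAT was thus lower in naive cells and the gene around it was not. GNAS-AS1 (chr20:58818918-58850903, minus strand) is the paternal antisense RNA at GNAS. GNAS-AS1 was at 14.6, 15.8 and 4.84 CPM in Primed WT, 2.88, 3.53 and 2.97 in NaiveCult WT and 4.97, 3.82 and 4.92 in PXGL WT, with log2 fold changes of -1.75 (SE 0.33, edgeR adjusted p = 2.3e-04) and -1.14 (SE 0.32, adjusted p = 0.004). Primed WT replicate 3 lay far below the other primed libraries and within the PXGL WT range. This library also stood apart for INPP5F, given below. The PXGL WT value of GNAS-AS1 was -0.94 without Primed WT replicate 1 and -0.88 without replicate 2, both short of the fold. GNAS, which encodes a stimulatory G protein subunit, and L3MBTL1, a chromatin protein, were not called, with log2 fold changes of -0.70 and -0.53 in NaiveCult WT and 0.08 and -0.04 in PXGL WT.

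INPP5F (chr10:119726042-119829147, plus strand), an inositol phosphatase on chromosome 10, was the clearest case of a library that stood apart. It was at 35.5, 35.02 and 219.6 CPM in Primed WT, 206, 207 and 205 in NaiveCult WT and 261, 256 and 258 in PXGL WT, so that Primed WT replicate 3 lay within the naive range and the other primed libraries far below it. For INPP5F the log2 fold change was 1.24 (SE 0.5, edgeR adjusted p = 0.034) in NaiveCult WT and 1.62 (SE 0.51, adjusted p = 0.0085) in PXGL WT with all libraries, and 2.70 and 3.08 without Primed WT replicate 3. The call in NaiveCult WT was lost when Primed WT replicate 1 or replicate 2, or any 1 of the 3 NaiveCult WT libraries, was left out, with library totals (1.08, edgeR adjusted p = 0.062) and with the 6 compared libraries alone (1.26, edgeR adjusted p = 0.062), and DESeq2 gave no adjusted p. The RefSeq table lists 2 starts for INPP5F, 1 of them far inside the gene. As background, the imprinted transcript of INPP5F is a short one that begins there, and counts per gene do not separate it from the long form.

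IGF2R (chr6:159969082-160113507, plus strand), the receptor that clears IGF2, is maternally expressed in mice and variably so in humans. It was at 141, 182 and 167 CPM in Primed WT, 56.2, 54.8 and 57.0 in NaiveCult WT and 46.9, 46.2 and 49.1 in PXGL WT, with log2 fold changes of -1.39 (SE 0.072, edgeR adjusted p = 2.6e-10) and -1.58 (SE 0.072, adjusted p = 5.5e-11). For PXGL WT against NaiveCult WT the value was -0.19 (SE 0.072, edgeR adjusted p = 0.033). RB1 (chr13:48303744-48599436, plus strand) is the retinoblastoma tumor suppressor, which has an imprinted bias toward the maternal copy. RB1 was at 24.5, 27.3 and 27.3 CPM in Primed WT, 2.56, 1.67 and 2.84 in NaiveCult WT and 4.45, 4.17 and 4.23 in PXGL WT, with -3.33 (SE 0.14, edgeR adjusted p = 3.6e-11) and -2.41 (SE 0.13, adjusted p = 4.0e-10). Both maternally expressed genes were lower in every naive library of these groups than in any primed one. RB1 was also lower in NaiveCult WT than in PXGL WT, by 0.92 (SE 0.15, edgeR adjusted p = 8.5e-05), short of the fold. IGF2R shares exon sequence with the pseudogene CHP1P2.

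ZNF597 and NAA60 stand back to back on chromosome 16. ZNF597 (chr16:3432414-3443504, minus strand) is a zinc finger gene. ZNF597 was at 9.38, 11.3 and 12.04 CPM in Primed WT, 0.829, 1.09 and 0.743 in NaiveCult WT and 8.71, 8.58 and 8.04 in PXGL WT. Its log2 fold change was -3.46 (SE 0.16, edgeR adjusted p = 9.2e-11) in NaiveCult WT and -0.16 (SE 0.13, adjusted p = 0.24) in PXGL WT. NAA60 (chr16:3443649-3486953, plus strand) is an acetyltransferase of the Golgi. NAA60 was at 22.3, 25.1 and 27.2 CPM in Primed WT, 20.6, 18.4 and 18.9 in NaiveCult WT and 52.8, 51.1 and 50.3 in PXGL WT, with -0.21 (SE 0.075, edgeR adjusted p = 0.016) and 1.25 (SE 0.073, adjusted p = 7.7e-10). The pair differed between naive groups in the same direction, ZNF597 by 3.30 (SE 0.16, edgeR adjusted p = 5.4e-10) and NAA60 by 1.47 (SE 0.074, adjusted p = 6.7e-10). ZNF597 was not at one level in PXGL medium, however: the 9 siRNA libraries of PXGL cells were at 0.481 to 1.40 CPM and the 12 PXGL libraries of the other run code at 7.90 to 13.3 CPM, while NAA60 was at 42.9 to 64.0 CPM in all 21.

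The remaining called genes were at low or middling levels. KCNK9 (chr8:139600838-139704109, minus strand) is a background potassium channel of the brain. KCNK9 was at 0.431, 0.276 and 0.350 CPM in Primed WT, 2.12, 3.35 and 2.88 in NaiveCult WT and 0.572, 0.687 and 0.634 in PXGL WT, with 3.13 (SE 0.26, edgeR adjusted p = 4.4e-08) and 1.03 (SE 0.28, adjusted p = 0.0037). In PXGL WT the KCNK9 call was lost with library totals (0.83) and without Primed WT replicate 2 (0.89). DIRAS3 (chr1:68045886-68051717, minus strand) is a Ras-related growth suppressor. DIRAS3 was at 0, 0 and 0.0305 CPM in Primed WT, 0.146, 0.0465 and 0.158 in NaiveCult WT and 1.001, 0.569 and 0.731 in PXGL WT, a ratio of 9.77-fold (95% counting interval 2.27 to 88.0) in NaiveCult WT and 66.3-fold (95% counting interval 18.0 to 553) in PXGL WT (edgeR adjusted p = 0.0051 and 7.6e-07). The 2 primed reads of DIRAS3 were both in replicate 3, and the fitted log2 fold changes of 3.19 and 5.95 were 5.58 and 8.34 without it. Both genes were above primed in every naive library of these groups, KCNK9 more so in NaiveCult WT and DIRAS3 more so in PXGL WT.

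PLAGL1 (chr6:143940300-144064599, minus strand) is a zinc finger regulator of growth. PLAGL1 was at 1.08, 1.17 and 1.11 CPM in Primed WT, 0.463, 0.256 and 0.540 in NaiveCult WT and 1.60, 1.71 and 2.06 in PXGL WT, with -1.26 (SE 0.27, edgeR adjusted p = 5.8e-04) and 0.89 (SE 0.22, adjusted p = 0.0019), so that only NaiveCult WT was called, a call lost without NaiveCult WT replicate 2 (-0.998). PLAGL1 and HYMAI overlap on 1 strand, and their counts are uncertain. ZDBF2 (chr2:206274663-206314427, plus strand) is a zinc finger gene. ZDBF2 was at 261, 251 and 259 CPM in Primed WT, 123, 117 and 131 in NaiveCult WT and 106, 104 and 109 in PXGL WT, with -0.90 (SE 0.046, edgeR adjusted p = 2.4e-10) and -1.06 (SE 0.046, adjusted p = 3.2e-11). FAM50B (chr6:3849373-3851320, plus strand) is an intronless gene. FAM50B was at 6.62, 7.44 and 7.10 CPM in Primed WT, 4.32, 5.02 and 5.33 in NaiveCult WT and 2.50, 2.18 and 2.32 in PXGL WT, with -0.37 (SE 0.12, edgeR adjusted p = 0.012) and -1.39 (SE 0.13, adjusted p = 1.7e-07). ZDBF2 was lower in every naive library, and its call in PXGL WT and not in NaiveCult WT lay at the fold threshold, since with library totals NaiveCult WT was called too (-1.05). GPR1, NAP1L5, TRAPPC9 and ZNF331 were not called in either comparison, with log2 fold changes from -0.39 to 0.98, although GPR1 (0.98 in NaiveCult WT) passed the fold without Primed WT replicate 1 (1.12) or NaiveCult WT replicate 2 (1.18).

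**Figure D3:**
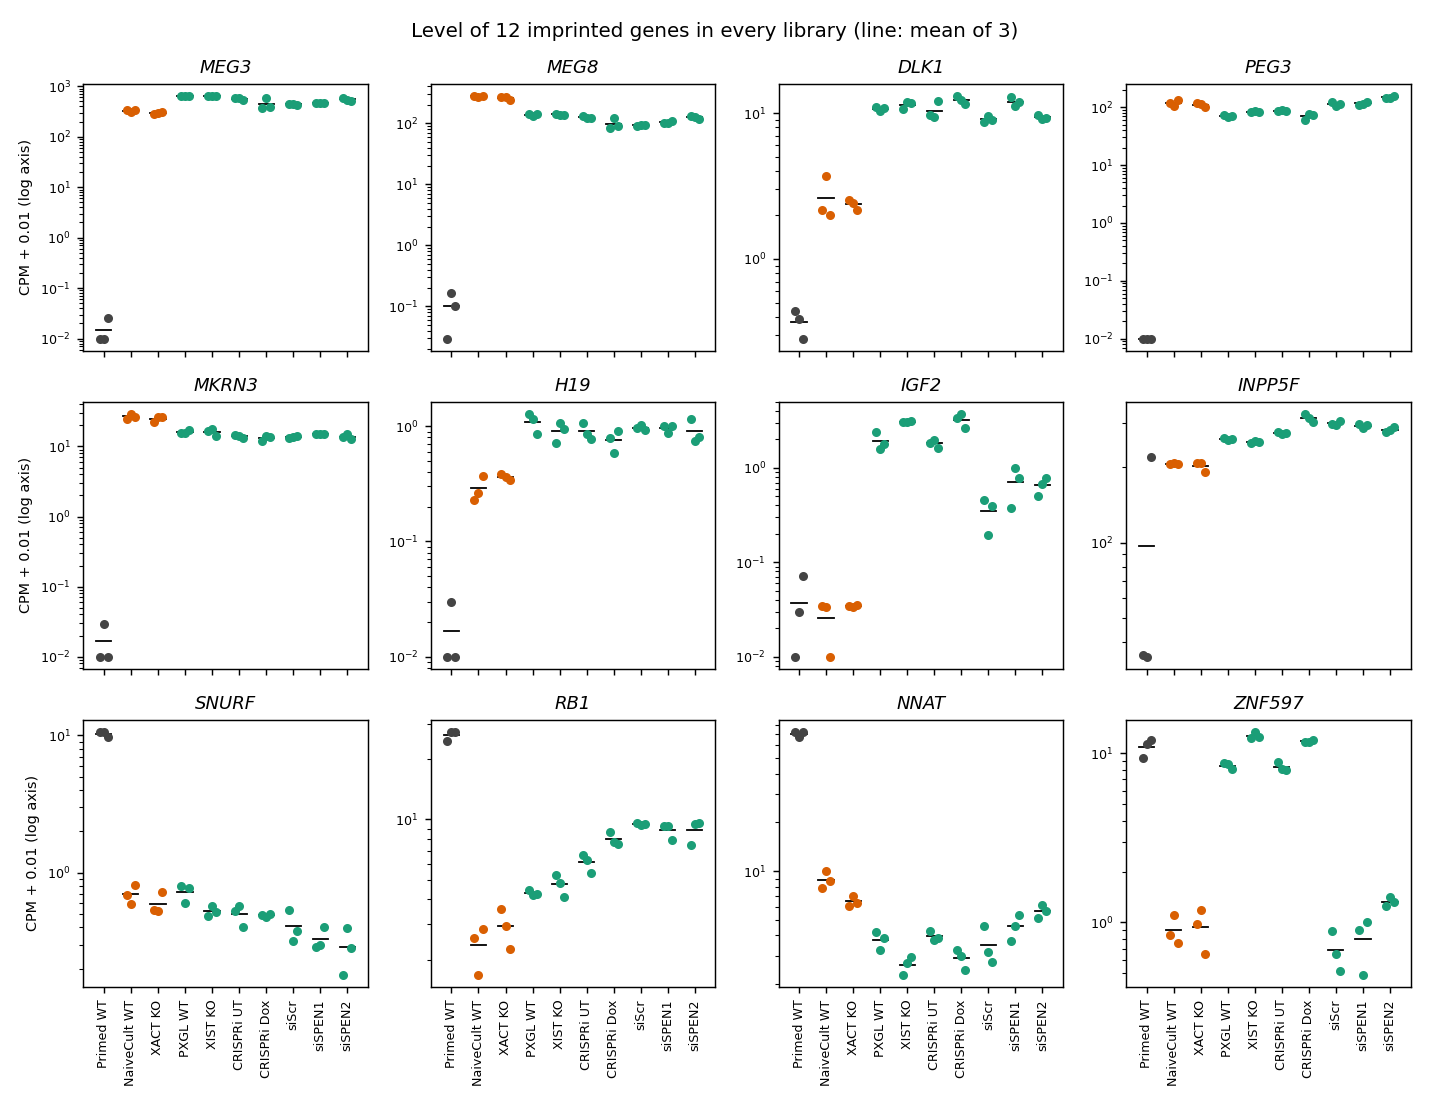
Level of 12 imprinted genes in each of the 30 libraries by group, as CPM + 0.01 on a log axis, with a line at the mean of the 3 libraries and colours for primed (grey), NaiveCult (orange) and PXGL (green) cells. MEG3, MEG8, PEG3 and MKRN3 are at or near 0 in Primed WT and high in all 27 naive libraries, SNURF, RB1 and NNAT run the other way, the third INPP5F library of Primed WT lies among the naive ones, and ZNF597 is low in the NaiveCult and siRNA groups.

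PXGL WT was set directly against NaiveCult WT to ask which genes separate the naive media. Of the 41 members tested 15 were called, 11 higher and 4 lower in PXGL WT, at a background of 27.4% (16.3% higher and 11% lower). The members' median absolute log2 fold change was 0.69 against 0.59 for all genes. The higher genes were led by IGF2, MAGEL2 and ZNF597. IGF2 was 126-fold (95% counting interval 34.7 to 1048) higher, with edgeR adjusted p = 9.6e-08. They also held DIRAS3 at 2.76 (SE 0.47, edgeR adjusted p = 1.1e-04), PLAGL1 at 2.14 (SE 0.26, adjusted p = 4.7e-06), DLK1 at 2.09 (SE 0.2, edgeR adjusted p = 4.6e-07), H19 at 1.999 (SE 0.34, adjusted p = 1.1e-04), PEG10, CDKN1C at 1.47 (SE 0.37, edgeR adjusted p = 0.0029), NAA60 and MEG3. MEG3 differed by 1.03 (SE 0.047, edgeR adjusted p = 2.4e-10), just past the fold threshold and short of it with library totals (0.98), and MEG8, at -0.95 (SE 0.059, edgeR adjusted p = 5.5e-09), passed it only with library totals (-1.01). The lower genes were KCNK9 at -2.09 (SE 0.24, edgeR adjusted p = 2.6e-06), KCNQ1OT1 at -1.43 (SE 0.082, adjusted p = 2.3e-09), NNAT and FAM50B at -1.01 (SE 0.13, edgeR adjusted p = 1.1e-05). The FAM50B call was lost when PXGL WT replicate 2 or 3 or NaiveCult WT replicate 2 or 3 was left out (-0.95 to -0.98). Medium and run code differ together in this comparison and cannot be told apart.

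The other groups of each state gave ranges around these values. The 6 NaiveCult libraries and the 21 PXGL libraries gave MEG3 at 286.7 to 332 and 373 to 648 CPM, MEG8 at 244 to 281.7 and 84.0 to 142 CPM, and PEG3 at 100.3 to 131 and 60.4 to 158 CPM. SNURF stayed at 0.171 to 0.810 CPM in all 27 naive libraries, KCNQ1 at or below 0.234 CPM and NNAT at 2.27 to 9.99 CPM, each below every primed library. IGF2 and KCNQ1OT1 varied more within PXGL cells. IGF2 was at 0.185 to 0.994 CPM in the 9 siRNA libraries and at 1.59 to 3.73 CPM in the other 12, and KCNQ1OT1 at 120.2 to 186 and 37.9 to 113 CPM. For both genes, as for ZNF597, run code and siRNA transfection separate these libraries together and cannot be told apart.

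Among 23 genes that keep imprints or set DNA methylation, 21 were tested. In NaiveCult WT 8 were called higher and 1 lower than in Primed WT, and in PXGL WT 10 were called higher and 0 lower, which is 42.9% and 47.6% of those tested against 49.6% and 54.8% of all genes. The genes raised in both were DPPA3, DNMT3L, TET2, NLRP2, NLRP7, KHDC3L, PADI6 and OOEP, among which DNMT3L is a cofactor of the de novo methyltransferases, TET2 oxidizes methylcytosine, and KHDC3L, NLRP7, PADI6 and OOEP belong to the maternal proteins of the egg. DPPA3, which blocks upkeep of methylation, was at a mean of 2.91 CPM in Primed WT, 407 in NaiveCult WT and 281 in PXGL WT. NLRP7 had means of 0.294, 309 and 222 CPM, and KHDC3L of 0.0496, 273 and 376 CPM. DNMT1, the maintenance methyltransferase, fell by 1.08 on the log2 scale in NaiveCult WT (SE 0.079, edgeR adjusted p = 1.1e-08), whereas in PXGL WT it was at -0.26 and not called. UHRF1, its partner, was called in PXGL WT at 1.90 and not in NaiveCult WT at 0.85. ZFP57 was near 0 everywhere, with group means of 0.0496 CPM or less, while TRIM28, its cofactor, had group means of 576 to 1168 CPM. DPPA3, DNMT3L and NLRP7 also stand in the list of 10 naive markers. In the perturbed groups the called genes of this list were TET2, lower with doxycycline (-1.22), and PADI6, higher with siSPEN1 (1.27) and siSPEN2 (1.16), and 0 were called in XIST KO or XACT KO.

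Loss of XIST was examined first by deletion. In XIST KO cells 0 of the 42 members tested were called against PXGL WT with edgeR or DESeq2, at a background of 1.28%, while 15 had an unadjusted p under 0.05 with edgeR and 14 with DESeq2, as had 25.3% and 24.5% of all genes. On the adjusted p alone 10 passed, 6 higher and 4 lower, at a background of 12.9% (6.94% and 5.99%). The smallest adjusted p belonged to ZNF597, at 8.71, 8.58 and 8.04 CPM in PXGL WT and 12.3, 13.3 and 12.4 CPM in XIST KO, 0.59 (SE 0.073, edgeR adjusted p = 7.9e-06) on the log2 scale. Next was IGF2R, at 46.9, 46.2 and 49.1 CPM in PXGL WT and at 59.2, 59.5 and 61.1 CPM in XIST KO, 0.34 (SE 0.053, edgeR adjusted p = 1.4e-04). In both genes the groups did not overlap, with each XIST KO library higher. In PXGL WT, CDKN1C was at 0.683, 0.687 and 1.32 CPM and GPR1 at 0.477, 0.261 and 0.748 CPM. In XIST KO, CDKN1C was at 1.39, 1.88 and 1.62 CPM and GPR1 at 1.06, 0.899 and 0.702 CPM. Both were called when PXGL WT replicate 3 was left out, at log2 fold changes of 1.25 and 1.21, and in no other fit. The summed level of 3 neuroectoderm markers was 363 to 382 CPM in PXGL WT and 413 to 428 CPM in XIST KO, nearly all of it NES. That of the trophoblast markers was 32.9 to 34.1 and 24.1 to 26.4 CPM. The part of these markers was not tested. The median absolute log2 fold change was 0.11 for the members and 0.10 for all genes.

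In the CRISPRi clones 1 member was lower with doxycycline past both thresholds, at a background of 3.81% in either direction and 1.55% lower. PEG10 was at 239, 232 and 223 CPM in CRISPRi UT and 87.0, 107 and 110.2 CPM in CRISPRi Dox, -1.20 (SE 0.059, edgeR adjusted p = 4.7e-12). Its neighbour SGCE, at 5.005, 5.09 and 4.48 CPM in CRISPRi UT and at 2.71, 2.47 and 2.60 CPM in CRISPRi Dox, changed by -0.92 (SE 0.12, edgeR adjusted p = 2.7e-06), short of the fold. In both genes every treated library lay below every untreated one. In XIST KO, PEG10 was at 219.7, 222 and 225 CPM against 257, 253 and 249 CPM in PXGL WT, -0.19 (SE 0.058, edgeR adjusted p = 0.034). SGCE was at 6.002, 6.60 and 5.24 CPM in XIST KO against 4.46, 4.79 and 5.07 CPM in PXGL WT, 0.32 (SE 0.11, edgeR adjusted p = 0.06). ZNF597 and IGF2R, which were higher in XIST KO, were also higher with doxycycline, without overlap. ZNF597 was at 8.83, 8.05 and 7.90 CPM in CRISPRi UT and 11.7, 11.6 and 11.9 CPM in CRISPRi Dox. IGF2R was at 64.8, 63.6 and 63.1 CPM in CRISPRi UT and 81.5, 88.2 and 71.2 CPM in CRISPRi Dox. The cause was not tested. On the adjusted p alone 22 of 42 members passed with doxycycline, 13 higher and 9 lower, at a background of 39.6% (20.7% and 18.9%). The median absolute log2 fold change was 0.25 against 0.17 for all genes.

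The difference between the effects was tested as a contrast of its own (the CRISPRi Dox effect minus the XIST KO effect). It was called for 3 members at a background of 2.88%. PEG10 differed by -1.02 (SE 0.082, edgeR adjusted p = 3.6e-08), SGCE by -1.23 (SE 0.16, adjusted p = 1.3e-05) and KCNK9 by 1.07 (SE 0.36, edgeR adjusted p = 0.04). PEG10 fell short of the fold without CRISPRi UT replicate 1 (-0.998) or CRISPRi Dox replicate 1 (-0.91). KCNK9 was at 0.764, 0.717 and 0.618 CPM in CRISPRi UT, 1.45, 0.964 and 1.21 in CRISPRi Dox, 0.572, 0.687 and 0.634 in PXGL WT and 0.412, 0.661 and 0.448 in XIST KO, and its call was lost in 10 of the 12 fits that leave out 1 library. The summed level of the 10 fibroblast markers was 6.53 to 8.05 CPM in CRISPRi UT and 12.6 to 17.6 CPM in CRISPRi Dox. Of this, COL5A2 had a mean of 0.914 CPM in CRISPRi UT and 10.2 CPM in CRISPRi Dox, whereas COL1A2 fell by 1.49 on the log2 scale and DCN, LUM and COL3A1 had means of at most 0.134 CPM. The naive markers summed to 3620.0 to 3724 CPM in CRISPRi UT and 3284 to 3445 CPM in CRISPRi Dox, the primed markers to 184 to 188 and 233 to 245 CPM, the neuroectoderm markers to 352 to 373 and 257 to 294 CPM and the mesendoderm markers to 22.3 to 24.1 and 27.8 to 34.5 CPM, with no overlap in any of these lists. Nearly all of the neuroectoderm sum was NES, with means of 365 CPM in CRISPRi UT and 274 CPM in CRISPRi Dox. Of the mesendoderm markers GATA4 rose, with means of 12.2 and 24.1 CPM, while GATA6 (7.92 and 3.98) and TBXT (0.902 and 0.152) fell. The part of these markers in the values above was not tested.

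Long noncoding RNAs of 2 imprinted loci, named here after their values were seen, were uneven among the CRISPRi Dox libraries. MEG3 was at 572, 574 and 543 CPM in CRISPRi UT and 373, 574 and 385 CPM in CRISPRi Dox, -0.36 (SE 0.095, edgeR adjusted p = 0.005), so that replicate 2 lay at the untreated level and the others below it. MEG8 ran the same way, at 129.5, 124 and 124 CPM in CRISPRi UT and 84.0, 119.7 and 90.6 CPM in CRISPRi Dox, -0.37 (SE 0.076, edgeR adjusted p = 5.6e-04). KCNQ1OT1 was at 76.5, 73.3 and 71.9 CPM untreated and 37.9, 81.4 and 50.8 CPM treated, -0.40 (SE 0.15, edgeR adjusted p = 0.036), with replicate 2 above all untreated libraries. XIST was at 6.52 CPM in CRISPRi Dox replicate 1, 159 in replicate 2 and 170 in replicate 3, so the libraries with remaining XIST were replicates 2 and 3, which lay apart in these genes. The part of XIST in these levels was not tested.

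**Figure D4:**
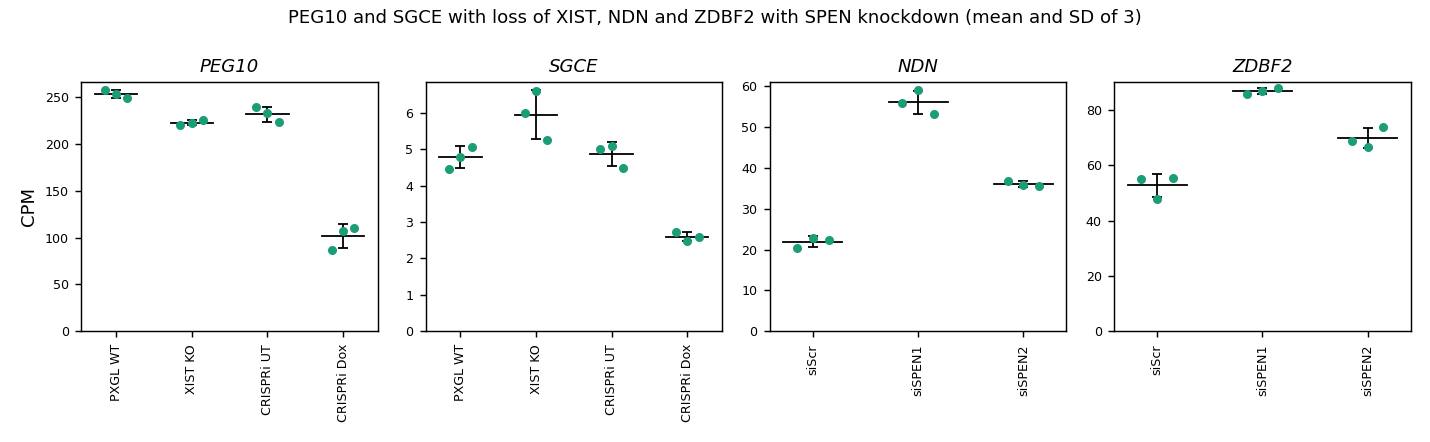
CPM of PEG10 and SGCE in PXGL WT, XIST KO, CRISPRi UT and CRISPRi Dox, and of NDN and ZDBF2 in siScr, siSPEN1 and siSPEN2, per library with the mean and SD of 3 as lines, on linear axes from 0. PEG10 and SGCE are lowest in CRISPRi Dox and not in XIST KO, and NDN and ZDBF2 are higher with either SPEN mix than in siScr, most with siSPEN1.

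NDN was higher with knockdown of SPEN than in siScr. It was at 20.5, 22.9 and 22.5 CPM in siScr, 55.8, 59.0 and 53.2 in siSPEN1 and 36.8, 35.9 and 35.5 in siSPEN2, without overlap between any of the groups. The log2 fold change was 1.36 (SE 0.064, edgeR adjusted p = 9.4e-13) with siSPEN1, past both thresholds, and 0.71 (SE 0.064, adjusted p = 2.0e-08) with siSPEN2, short of the fold, and the mixes differed from each other by -0.65 (SE 0.062, edgeR adjusted p = 4.0e-08). With siSPEN1 3 of the 40 members tested were called, all higher, at a background of 5.08% in either direction and 2.24% higher. With siSPEN2 2 were called, both higher, at 4.24% and 2.54%. Both comparisons share the siScr libraries. Marker lists moved as well. The primed markers summed to 251 to 262 CPM in siScr, 189 to 203 in siSPEN1 and 243 to 248 in siSPEN2, and the naive markers to 3551 to 3570.0, 3819 to 4031 and 3510.0 to 3653 CPM. The neuroectoderm markers summed to 444 to 465, 275 to 312 and 502 to 546 CPM and the mesendoderm markers to 46.4 to 50.7, 37.4 to 38.8 and 29.5 to 34.0 CPM in the same order. Nearly all of the neuroectoderm sum was NES, with means of 453, 291 and 523 CPM. SOX1 had means of 0.701, 1.21 and 0.548 CPM and PAX6 of at most 0.0292 CPM. The part of these markers in the members' values was not tested.

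ZIM2 was called with either mix, at 0.214, 0.0618 and 0.0485 CPM in siScr, 0.307, 0.449 and 0.516 in siSPEN1 and 0.244, 0.271 and 0.357 in siSPEN2. Its ratio to siScr was 4.07-fold (95% counting interval 2.22 to 7.98) with siSPEN1 (edgeR adjusted p = 0.0039) and 2.75-fold (95% counting interval 1.47 to 5.47) with siSPEN2 (edgeR adjusted p = 0.04), resting on 14 reads in siScr. Without siScr replicate 1 the fitted log2 fold changes of 1.99 and 1.42 were 2.89 and 2.32, and the siSPEN2 call was lost without any other siScr or siSPEN2 library, with DESeq2 and with all 30 libraries in the fit. IGF2 was called with siSPEN1 alone, at 0.452, 0.185 and 0.388 CPM in siScr, 0.362, 0.994 and 0.763 in siSPEN1 and 0.488, 0.659 and 0.777 in siSPEN2, 1.06 (SE 0.42, edgeR adjusted p = 0.044). The libraries of siSPEN1 and siScr overlapped, and the IGF2 call was lost without siScr replicate 2 or 3 or siSPEN1 replicate 2 or 3 (0.76 to 1.18), and with the 6 compared libraries alone (edgeR adjusted p = 0.054).

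GPR1, the receptor beside ZDBF2 on chromosome 2 that is named CMKLR2 in GENCODE 44, was called with siSPEN2, at 0.381, 0.535 and 0.534 CPM in siScr, 0.446, 0.385 and 0.598 in siSPEN1 and 1.001, 1.03 and 1.01 in siSPEN2, 1.05 (SE 0.29, edgeR adjusted p = 0.0068). It was also the only member called between the mixes, at 1.04 (SE 0.3, edgeR adjusted p = 0.01) and a background of 2.5%, of which 1.57% higher. The smallest adjusted p between the mixes were those of NDN, given above, and of GRB10, -0.33 (SE 0.053, edgeR adjusted p = 4.9e-05). Without siScr replicate 1 the value against siScr was 0.90, and between the mixes it was 0.98 without siSPEN1 replicate 1 and 0.93 without siSPEN1 replicate 2, each short of the fold. ZDBF2, named after its values were seen, was at 55.1, 47.9 and 55.4 CPM in siScr, 86.0, 86.8 and 88.0 in siSPEN1 and 68.9, 66.8 and 73.8 in siSPEN2. It passed the adjusted p with both mixes, at 0.73 (SE 0.06, edgeR adjusted p = 3.5e-09) and 0.39 (SE 0.06, adjusted p = 2.0e-05), without overlap of the groups. The PXGL libraries without siRNA held ZDBF2 at 92.45 to 110.9 CPM, above every siRNA library. The second smallest adjusted p with siSPEN1 was that of GRB10, 0.67 (SE 0.054, edgeR adjusted p = 2.2e-09), at 40.5, 44.6 and 42.5 CPM in siScr and 64.7, 69.2 and 68.0 in siSPEN1, and with siSPEN2 that of MEG8, 0.42 (SE 0.05, edgeR adjusted p = 9.7e-07), at 90.1, 94.8 and 94.6 CPM in siScr and 133, 124 and 119 in siSPEN2. In the PXGL libraries without siRNA GRB10 was at 59.0 to 77.7 CPM, with siScr below this range and siSPEN1 within it. MEG8 was at 84.0 to 142 CPM there, a range that held both siScr and siSPEN2. On the adjusted p alone 13 members passed with siSPEN1 (11 higher, 2 lower) and 16 with siSPEN2 (12 higher, 4 lower), at backgrounds of 43.7% (20.8% higher, 22.9% lower) and 41.2% (20.5% and 20.7%). The median absolute log2 fold change was 0.21 with siSPEN1 and 0.29 with siSPEN2, against 0.22 and 0.20 for all genes.

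Loss of XACT in NaiveCult cells came with 0 of 38 members called by edgeR or DESeq2, at a background of 0.115%, while 10 had an unadjusted p under 0.05 with edgeR and 9 with DESeq2, as had 18.2% and 17% of all genes. KCNQ1OT1 had the smallest adjusted p, at 283.4, 317 and 308 CPM in NaiveCult WT and 239.5, 243 and 259.6 CPM in XACT KO, -0.28 (SE 0.061, edgeR adjusted p = 0.056). CDKN1C followed, at 0.463, 0.325 and 0.225 CPM in NaiveCult WT and 0.944, 1.04 and 0.817 CPM in XACT KO, 1.48 (SE 0.35, edgeR adjusted p = 0.062). All XACT KO libraries were above the wild type for CDKN1C, and the gene was called in 4 other fits, at 1.47 to 1.76 on the log2 scale, whereas DESeq2 gave it no adjusted p. The median absolute log2 fold change was 0.12 for the members and for all genes alike.

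**Figure D5:**
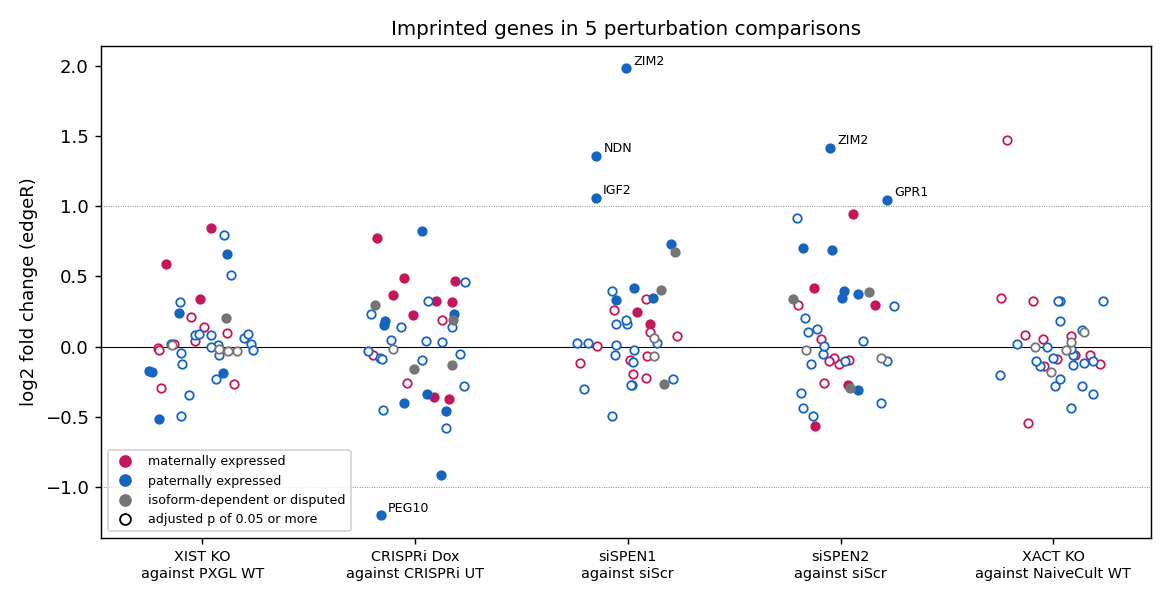
Log2 fold change (edgeR) of every tested imprinted gene in the comparisons of XIST KO, CRISPRi Dox, siSPEN1, siSPEN2 and XACT KO with their controls, coloured by parental class, filled where the adjusted p is under 0.05, with dotted lines at 1 and -1 and called genes named. All but a few genes lie between -1 and 1, PEG10 is the single gene called lower, and NDN, ZIM2, IGF2 and GPR1 are called higher with SPEN knockdown.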

How the data were processed

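The files hold raw read counts per gene symbol for 30 total RNA-seq libraries of H9 cells. Per the study's methods, the authors trimmed reads with Trim Galore 0.6.5, aligned them with Bowtie2 to hg38 and mm10, removed duplicates with Picard 2.23.5, removed mouse reads with XenofilteR and made the deposited counts with HTSeq 0.13.5 over exons on the reverse strand. The methods name an Ensembl annotation of GRCh38, while the symbols differ in part from GENCODE 44, so the exon lengths and overlaps taken from GENCODE 44 may not match the counted gene models. Reads that fall on exons of overlapping genes of 1 strand are not assigned by this kind of counting.

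All 30 count tables were used, with the groups of the labels. CPM was computed against the total of each library, and precision follows from 31.2 to 65.6 M counts (M is 1000000) a library. Intervals of ratios (95%, exact, on summed counts, for genes of 20 counts or fewer in a group) and floors of 3 counts cover counting error only. Tests used edgeR 4.0.16 (R 4.3.3) with TMM factors, filterByExpr (minimum count 10, minimum total 15) and the quasi-likelihood F-test, in 4 fits: the 3 wild-type groups, the 4 groups of the XIST deletion and CRISPRi, the 3 siRNA groups, and XACT KO with NaiveCult WT. P-values were adjusted by Benjamini-Hochberg over all genes of a fit. Calls needed an adjusted p under 0.05 and a log2 fold change beyond 1. Values are given in every library for members called in a comparison, together with the 2 members of smallest adjusted p in each perturbation comparison. Others given by library, such as NDN and UBE3A between states and MEG3, MEG8 and KCNQ1OT1 with doxycycline, were named after their values were seen. The fit was tested on simulated data.

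Alternatives were DESeq2 1.42.0, library totals in place of TMM, no filter on low counts, the replicate number as a block, only the 6 libraries compared, all 30 libraries in 1 fit, the adjusted p alone, and leaving out each library in turn. Gene positions come from GENCODE 44 on hg38, promoters from a RefSeq table of GRCh38.p14. The members, marker lists and upkeep genes were chosen with earlier results of these data known.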

Additional observations from a re-analysis of the deposited data

Results flagged for a closer look

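The effects of CRISPRi Dox and of XIST KO differed for 3 imprinted genes by a test of the difference itself (edgeR quasi-likelihood test, Benjamini-Hochberg adjustment over 17286 genes). For SGCE the CRISPRi Dox effect minus the XIST KO effect was -1.23 on the log2 scale (adjusted p = 1.3e-05). PEG10, its neighbour, differed by -1.02 (adjusted p = 3.6e-08), and every CRISPRi Dox library was below every CRISPRi UT library in both genes. KCNK9 differed by 1.07 (adjusted p = 0.04), a call that most fits with 1 library left out did not keep. GPR1 differed by 1.04 between the 2 SPEN siRNA mixes, siSPEN2 minus siSPEN1 (adjusted p = 0.01). Doxycycline, the repressor and the loss of XIST cannot be told apart in the CRISPRi cells, and the cause of the difference between the mixes was not tested.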

How the results depend on the processing

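Of the log2 fold changes of called members recomputed under other settings, 949 kept their call and direction, 49 lost the call and 0 reversed, while 24 values of members not called gained one. With the adjusted p alone and no fold threshold, the members called numbered 37 for NaiveCult WT against Primed WT, 34 for PXGL WT against Primed WT and 28 for PXGL WT against NaiveCult WT, at 85.4%, 87.5% and 70.6% of all genes. They numbered 10 for XIST KO, 22 for CRISPRi Dox and 10 for the difference of these effects, at 12.9%, 39.6% and 21.8% of all genes. For siSPEN1, siSPEN2 and siSPEN2 against siSPEN1 they numbered 13, 16 and 14, at 43.7%, 41.2% and 34.7% of all genes. The siSPEN2 count was 1 in place of 2 with DESeq2, with the replicate block and with all 30 libraries in 1 fit, and ZIM2 was the gene lost. The XACT KO count was 1 in place of 0 with no filter on low counts, with the replicate block and with all 30 libraries, and CDKN1C was the gene gained. With 1 library left out at a time the counts ran from 23 to 24 for NaiveCult WT against Primed WT, 25 to 27 for PXGL WT against Primed WT, 14 to 15 for PXGL WT against NaiveCult WT, 0 to 2 for XIST KO, 1 to 1 for CRISPRi Dox, 1 to 3 for the difference, 2 to 3 for siSPEN1, 1 to 2 for siSPEN2, 0 to 1 for siSPEN2 against siSPEN1 and 0 to 1 for XACT KO. The causes were not tested. Per the methods the CRISPRi clones were studied with and without doxycycline, but the labels do not tie numbers to clones. The numbers were not taken to pair the libraries, since the highest correlation between libraries of the same number was 0.0684. With the block the CRISPRi Dox count stayed at 1. Between the SPEN mixes each library correlated best with its own number, a hint from the data and not from the design. Besides the siSPEN2 and XACT KO counts, the block took the IGF2 call with siSPEN1 and the KCNK9 call in the difference (edgeR adjusted p = 0.055). DESeq2 gave no adjusted p for INPP5F against Primed WT. Genes with a few counts, such as ZIM2, IGF2 and DIRAS3, are limited by depth.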
